A study of Mus musculus with 14 samples.

Results

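The genes described here are 9 transcription factors that set or keep the identity of the retinal pigment epithelium (RPE): Otx2, Mitf, Pax6, Sox9, Lhx2, Tfec, Rax, Six3 and Otx1. They were chosen by name, matched to the Ensembl genes of the deposited count table, and are 9 of its 42687 genes. The table holds RNAseq of RPE cells from 14 male C57BL/6J mice of 3 months of age, with the cells of both eyes of a mouse pooled into 1 library. KO mice were Best1-Cre+/-; Clic4f/f, in which Cre driven by the RPE promoter of Best1 removes the floxed Clic4 alleles after birth. They were compared with mice of 3 control genotypes, each in a set with KO mice of its own, which are told by the style of their titles. The WT set had 3 KO and 3 wild-type mice. The Ctrl set had 2 KO and 2 Ctrl mice (Clic4f/f, floxed alleles without Cre). The CreCtrl set had 2 KO and 2 CreCtrl mice (Best1-Cre+/-, Cre without floxed alleles). The sets share no library, and control genotype and set cannot be told apart. The labels do not say whether the mice of a group came from separate litters, so p-values measure the spread between these mice only.

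During eye development, the eye-field factors Pax6, Rax, Six3 and Lhx2 specify the optic vesicle, and its outer layer becomes RPE under Otx2 and Mitf. Mitf, a basic helix-loop-helix protein, and Otx2, a homeodomain protein, switch on the pigment genes, and Otx2 is kept in the adult RPE. Sox9 and Lhx2 act with Otx2 on visual cycle genes, whose products regenerate the chromophore of the photoreceptors. Tfec is a relative of Mitf, and Otx1 a relative of Otx2.

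Libraries held 9828293 to 32384166 counts, the WT libraries being the shallowest (9828293 to 12363580). Levels below are CPM, a gene's counts scaled to a common library total, with library totals adjusted by TMM within each set so that a few very abundant genes do not shift the rest, except where TMM over all 14 libraries is named. Clic4, the targeted gene, had 242, 248 and 239.9 CPM in WT and 32.6, 22.5 and 17.9 CPM in the KO mice of that set. It had 69.1 and 59.4 CPM in Ctrl against 9.39 and 32.6 CPM in KO, and 86.4 and 108 CPM in CreCtrl against 13.2 and 30.4 CPM in KO. Every KO library thus lay below the control libraries of its set, with adjusted p of 3.33e-05 (WT set), 0.333 (Ctrl set) and 0.0132 (CreCtrl set) from edgeR. The RPE markers Rpe65 (1173 to 6647 CPM over the 14 libraries) and Rlbp1 (1759 to 6724 CPM) were abundant in all libraries, whereas Best1, whose promoter drives the Cre, had 1.17 to 6.06 CPM. In bulk RNA, fewer cells of a type and less RNA per cell cannot be told apart.

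Markers of other cells moved with the genotype. The summed CPM of 10 fibroblast genes (TMM over 14 libraries) was 7634 to 7689 in WT against 335 to 803 in KO, 1320 to 2440 in Ctrl against 253 to 406 in KO, and 1395 to 2692 in CreCtrl against 383 to 455 in KO. The sum of 10 RPE markers was 16357 to 24706 in WT against 79469 to 88554 in KO, 49097 to 49332 in Ctrl against 75323 to 75386 in KO, and 52422 to 60331 in CreCtrl against 75005 to 82511 in KO. The WT libraries therefore stood apart from the other control libraries on both sums. The part of this composition in the values below was not tested, except where a scaling or covariate is named.

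Per kilobase of exon, which allows levels of different genes to be compared, Otx2 was the most abundant of the 9 factors. Its level over the 14 libraries averaged 189 CPM per kb (range 68.0 to 259.7, TMM over 14 libraries). Sox9 (50.6 CPM per kb, range 19.8 to 96.8), Six3 (39.5, range 13.6 to 65.9), Lhx2 (32.5, range 7.58 to 49.3) and Mitf (21.3, range 12.5 to 31.3) followed. Pax6 averaged 4.02 CPM per kb (range 0.688 to 16.2), Otx1 2.41 (range 0.12 to 8.31) and Rax 2.00 (range 0.84 to 6.36). Tfec was the lowest, at 0.114 CPM per kb (range 0 to 0.48). Library by library, Otx2 was above Sox9 and Sox9 above Six3 in 14 of 14 libraries each, Six3 above Lhx2 in 13, Lhx2 above Mitf in 10, Pax6 above Otx1 in 13 and Otx1 above Rax in 7. The ranges of Sox9, Six3, Lhx2 and Mitf overlap over the libraries, as do those of Pax6, Otx1 and Rax. Since all genes are measured in the same libraries, these ranges alone do not give the order of neighbours. Within libraries the order was steady for Sox9 and Six3 (14 of 14) and not for Otx1 and Rax (7 of 14). The differences between genes were not tested. Lengths are unions of annotated exons (4.22 kb for Otx2, 6.20 kb for Mitf and 11.7 kb for Pax6), and the separate isoforms of Mitf and Pax6 are not resolved in gene counts.

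**Figure D1:**
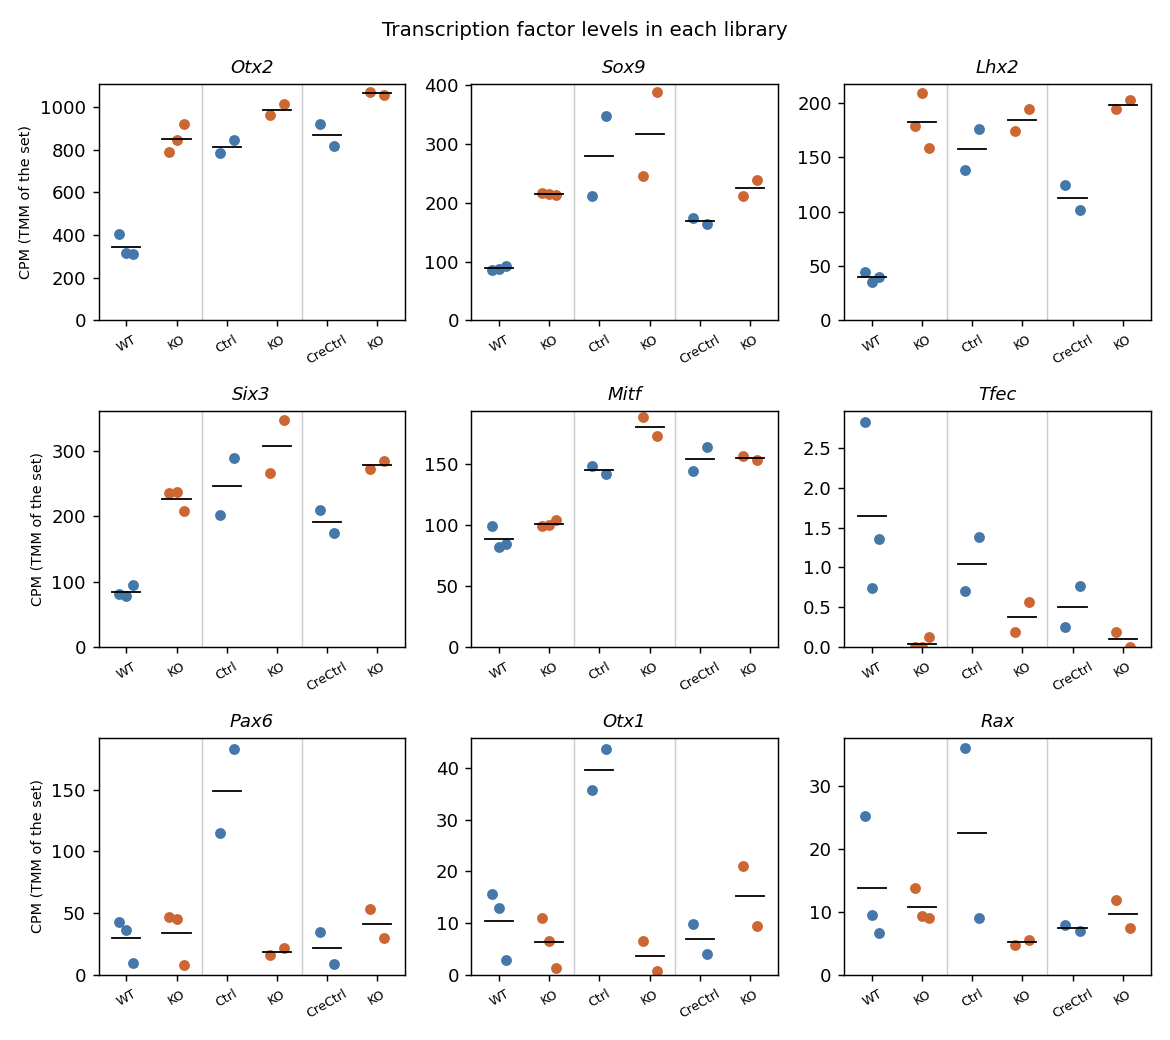
Level of each of the 9 factors in every library, in CPM with TMM within its set, on linear axes that start at 0. Points are libraries (blue, control; orange, KO), black lines are group means, and grey lines separate the 3 sets; Lhx2 in KO mice of the WT set (158 to 209 CPM) lies far above WT (35.2 to 44.4 CPM), whereas Pax6, Otx1 and Rax differ widely between mice of the same group.

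Otx2, Sox9, Lhx2 and Six3 were higher in KO mice of the WT set by 2.43- to 4.56-fold, and Lhx2 was also higher in those of the CreCtrl set. Mitf passed the test in no set, with log2 fold changes of 0.01 to 0.31. Pax6, Otx1 and Rax also passed it in none. Tfec was counted in very few reads and is described by its counts. Of the 9 factors, 4 were called higher against WT, 0 against Ctrl and 1 of the 8 tested against CreCtrl. Tfec had an adjusted p under 0.05 in the WT set as well, but it passed the filter on low counts there only through the WT libraries, so that call is not read as a result. Calls were made at an adjusted p under 0.05 by the quasi-likelihood test of edgeR, adjusted over all genes tested by the method of Benjamini and Hochberg. By the same test, 35.1% of 15428 genes were called in the WT set (16.1% higher, 19% lower), 0% of 15287 in the Ctrl set and 15.8% of 15963 in the CreCtrl set (3.6% higher, 12.2% lower). In the Ctrl set, where no gene was called, 1846 genes and 3 of the 9 factors (Pax6, Rax and Otx1) had an unadjusted p under 0.05. DESeq2 called 3 factors there (Pax6, Rax and Otx1, all lower), beside 6.87% of all genes, and 3 in the CreCtrl set (Sox9, Lhx2 and Six3, all higher), beside 22.4% of all genes. Single libraries moved these counts: without CreCtrl replicate 1, Pax6, Lhx2, Six3 and Otx1 were called in the CreCtrl set, without CreCtrl replicate 2 none was, and without KO replicate 2 Otx1 alone was. Pax6 was called against Ctrl without Ctrl replicate 1. Over all genes, 1147 to 5157 were called in the CreCtrl set and 0 to 512 in the Ctrl set without a library in turn.

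Otx2 (ENSMUSG00000021848; GRCm38 chromosome 14, 48657677 to 48673819, minus strand, 7 exon blocks) encodes the homeodomain factor needed for the RPE to form and to stay RPE. It had 404, 317 and 309.6 CPM in WT and 789.9, 843 and 920.5 CPM in KO mice of that set. Every KO library lay above every WT library, a log2 fold change of 1.31 (SE 0.15, adjusted p = 0.000267 from edgeR). It had 783 and 846 CPM in Ctrl against 963 and 1013 CPM in KO. Its levels were 920.4 and 815 CPM in CreCtrl against 1072 and 1057 CPM in KO. The KO libraries were the higher ones in these sets too, without overlap, but the log2 fold changes of 0.28 (SE 0.24, adjusted p = 0.818) and 0.29 (SE 0.19, adjusted p = 0.282) did not pass edgeR's test. Such small groups can separate by chance, here and for the other factors below. The share of all genes that separated was not counted. With TMM over 14 libraries, the 7 KO libraries had 803 to 1096 CPM and the Ctrl and CreCtrl libraries 805 to 917 CPM, whereas the WT libraries had 287 to 384.5 CPM and stood apart. Exons of Otx2 overlap those of Gm49154 on its strand and of an antisense gene, Otx2os1, and, since the counting's strand setting is not given in the sources used here, reads of these genes cannot be told apart over the overlaps.

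Sox9 (ENSMUSG00000000567; chromosome 11, 112782224 to 112787760, plus strand, 3 exon blocks), a high-mobility-group factor that acts with Otx2 on visual cycle genes and is also the master factor of cartilage, had 86.2, 86.7 and 92.2 CPM in WT. In the KO mice of that set it had 217, 214 and 214 CPM. Its log2 fold change was 1.28 (SE 0.11, adjusted p = 6.31e-05 from edgeR), and no libraries overlapped. Ctrl mice had 212 and 349 CPM and their KO mice 246 and 388 CPM, so the spread within a genotype exceeded the difference (log2 fold change 0.18, SE 0.36, adjusted p = 0.946). That log2 fold change turned negative without Ctrl replicate 1 (-0.13) or without KO replicate 2 (-0.19). CreCtrl mice had 174 and 164 CPM and their KO mice 212 and 239 CPM, again without overlap (log2 fold change 0.42, SE 0.16, adjusted p = 0.103). The cartilage genes that Sox9 is known for differed widely in level. Over the 14 libraries (TMM over 14 libraries), Col2a1 had 0.652 to 46.1 CPM and Col9a3 877 to 3147 CPM. Of the 7 cartilage genes tested over the 3 sets, 1 was called, lower.

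Lhx2 (ENSMUSG00000000247; chromosome 2, 38339281 to 38369733, plus strand, 8 exon blocks) encodes a LIM homeodomain factor of the eye field that remains in the RPE. It had 44.4, 35.2 and 40.004 CPM in WT and 179, 209 and 158 CPM in KO mice of that set. This was the largest rise among the 9 factors there, a log2 fold change of 2.19 (SE 0.15, adjusted p = 3.83e-05 from edgeR), and 98.5% of all genes tested had a log2 fold change no higher. Ctrl mice had 139 and 176 CPM of Lhx2, against 174 and 194 CPM in KO. It stood at 124 and 101 CPM in CreCtrl and at 195 and 202 CPM in KO. The groups overlapped in the Ctrl set (log2 fold change 0.22, SE 0.24, adjusted p = 0.863) and not in the CreCtrl set, where the rise passed the test (log2 fold change 0.81, SE 0.17, adjusted p = 0.025). The latter call was lost without CreCtrl replicate 2 (log2 fold change 0.64, adjusted p = 0.0579) and without KO replicate 2 (0.79, adjusted p = 0.0948).

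Six3 (ENSMUSG00000038805; chromosome 17, 85613608 to 85629302, plus strand, 4 exon blocks), a homeodomain factor of the eye field, had 81.8, 78.3 and 95.1 CPM in WT and 236, 236 and 208 CPM in KO mice of that set. The log2 fold change was 1.41 (SE 0.13, adjusted p = 9.52e-05 from edgeR). For Ctrl mice, Six3 had 202 and 289.5 CPM, against 266 and 348 CPM in KO, which overlapped (log2 fold change 0.32, SE 0.29, adjusted p = 0.829). CreCtrl mice had 209 and 175 CPM against 272 and 285 CPM in KO, which did not (log2 fold change 0.53, SE 0.17, adjusted p = 0.0704). Without CreCtrl replicate 1 this was called (0.67, adjusted p = 0.0255). Its exons overlap those of the antisense genes Six3os1 and Gm28528, with the same limit as for Otx2.

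Mitf (ENSMUSG00000035158; chromosome 6, 97807052 to 98021349, plus strand, 12 exon blocks), the factor of pigment cells that drives their melanosome genes, had 98.8, 81.8 and 84.7 CPM in WT and 99.2, 99.8 and 104 CPM in KO mice of that set. The lowest KO library barely exceeded the highest WT library, and the log2 fold change of 0.19 (SE 0.12, adjusted p = 0.255) did not pass edgeR's test. Ctrl mice had 148.6 and 142 CPM against 188 and 173 CPM in KO (log2 fold change 0.31, SE 0.21, adjusted p = 0.732). CreCtrl mice had 144 and 164 CPM against 157 and 153 CPM in KO, which overlapped (log2 fold change 0.01, SE 0.16, adjusted p = 0.981). Its level differed between sets as well: with TMM over 14 libraries, the 3 KO libraries of the WT set had 101 to 105 CPM, below every library of the Ctrl and CreCtrl sets (143 to 194 CPM). Scaling by library size alone moved the median over all genes to -0.32 in the WT set and -0.24 in the CreCtrl set, and turned the sign of Mitf there (-0.05 and -0.22).

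Tfec (ENSMUSG00000029553; chromosome 6, 16833373 to 16898441, minus strand, 7 exon blocks), the relative of Mitf, was counted in so few reads that its counts are given. WT libraries had 32, 8 and 18 counts and the KO libraries of their set 0, 0 and 2 counts. Per total count, the summed KO level was 0.0231 of that of WT (95% exact binomial interval 0.00273 to 0.0872, counting error only). It passed the filter on low counts only through the WT libraries, so its adjusted p of 0.0462 from edgeR is not independent of the difference. With all genes of at least 1 count tested, the adjusted p was 0.109. It also exceeded 0.05 on leaving out any of 5 of the 6 libraries of the set (up to 0.14), the exception being KO replicate 3. Ctrl libraries had 11 and 39 counts against 3 and 10 in KO, a ratio of 0.321 (0.16 to 0.599) with an adjusted p of 0.723 from edgeR. CreCtrl libraries had 6 and 12 counts against 5 and 0 in KO, a ratio of 0.173 (0.0501 to 0.482), and Tfec was filtered out before the test in that set. In CPM, the KO libraries lay below the control libraries in each set. In the Ctrl and CreCtrl sets this rested on few reads. The nearest libraries had 10 counts in KO against 11 in Ctrl, and 5 in KO against 6 in CreCtrl.

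Pax6 (ENSMUSG00000027168; chromosome 2, 105668900 to 105697364, plus strand, 16 exon blocks), Otx1 (ENSMUSG00000005917; chromosome 11, 21994764 to 22002897, minus strand, 4 exon blocks) and Rax (ENSMUSG00000024518; chromosome 18, 65928277 to 65939787, minus strand, 4 exon blocks) varied widely between mice of a group. All 3 belong to the early eye field or forebrain programme, and Pax6 is known in the adult eye for the amacrine and ganglion cells of the retina and for the iris and ciliary body. Pax6 had 42.4, 36.1 and 9.49 CPM in WT and 47.0, 45.4 and 8.02 CPM in KO mice of that set. Replicate 3 of each genotype lay far below the other mice, and the log2 fold change was 0.19 (SE 0.68, adjusted p = 0.863 from edgeR). Ctrl mice had 114 and 183 CPM, the highest of all 14 libraries, against 15.8 and 21.4 CPM in KO. That log2 fold change of -3.00 (SE 0.34) had an unadjusted p of 0.000172 but an adjusted p of 0.106, so edgeR did not call it. Without a library in turn, its log2 fold change ran from -3.29 to -2.62. It was called with all genes of at least 1 count tested (adjusted p = 6.44e-18 from edgeR) and by DESeq2 (adjusted p = 9.34e-12). These alternatives called 1658 and 1168 genes against Ctrl, beside 0 in the main fit. The small adjusted p of Pax6 therefore depend on the filter and the tool, not on the spread between these mice alone. In the CreCtrl set it had 34.4 and 8.38 CPM in CreCtrl and 52.9 and 29.8 CPM in KO, with overlap (log2 fold change 0.94, SE 0.57, adjusted p = 0.265). Without CreCtrl replicate 1 its log2 fold change there was 2.31 and was called (adjusted p = 0.00659), as was its 0.96 with all genes of at least 1 count tested (6.06e-05).

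Otx1 was likewise highest in the Ctrl mice. It had 15.7, 12.9 and 2.79 CPM in WT and 11.04, 6.56 and 1.34 CPM in the KO mice of that set (log2 fold change -0.73, SE 0.80, adjusted p = 0.542 from edgeR). Levels were 35.7 and 43.6 CPM in Ctrl and 6.45 and 0.632 CPM in KO (log2 fold change -3.49, SE 0.96, adjusted p = 0.196). Levels were 9.69 and 3.96 CPM in CreCtrl and 21.1 and 9.46 CPM in KO (log2 fold change 1.14, SE 0.50, adjusted p = 0.139). This last change was called without CreCtrl replicate 1 (1.95, adjusted p = 0.0299), without KO replicate 2 (1.62, adjusted p = 0.0384) and with all genes of at least 1 count tested (1.16, adjusted p = 0.000919). Against Ctrl the log2 fold change was -5.96 without KO replicate 1. The groups overlapped in the WT and CreCtrl sets but not in the Ctrl set.

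Rax had 25.3, 9.56 and 6.70 CPM in WT and 13.8, 9.40 and 8.95 CPM in KO mice of that set (log2 fold change -0.37, SE 0.50, adjusted p = 0.627 from edgeR). The sign of this change rested on WT replicate 1, without which the log2 fold change was 0.40. In the Ctrl set Rax had 36.2 and 8.99 CPM in Ctrl and 4.76 and 5.57 CPM in KO (log2 fold change -2.12, SE 0.69, adjusted p = 0.274). It was -0.79 without Ctrl replicate 1 and -2.80 without Ctrl replicate 2. In the CreCtrl set it had 7.86 and 6.97 CPM in CreCtrl and 11.97 and 7.38 CPM in KO (log2 fold change 0.38, SE 0.31, adjusted p = 0.394). With TMM over 14 libraries, Ctrl replicate 1 was the highest of the 14 (37.2 CPM). Exons of Rax overlap those of the antisense gene Raxos1, so reads of that pair are uncertain as well.

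**Figure D2:**
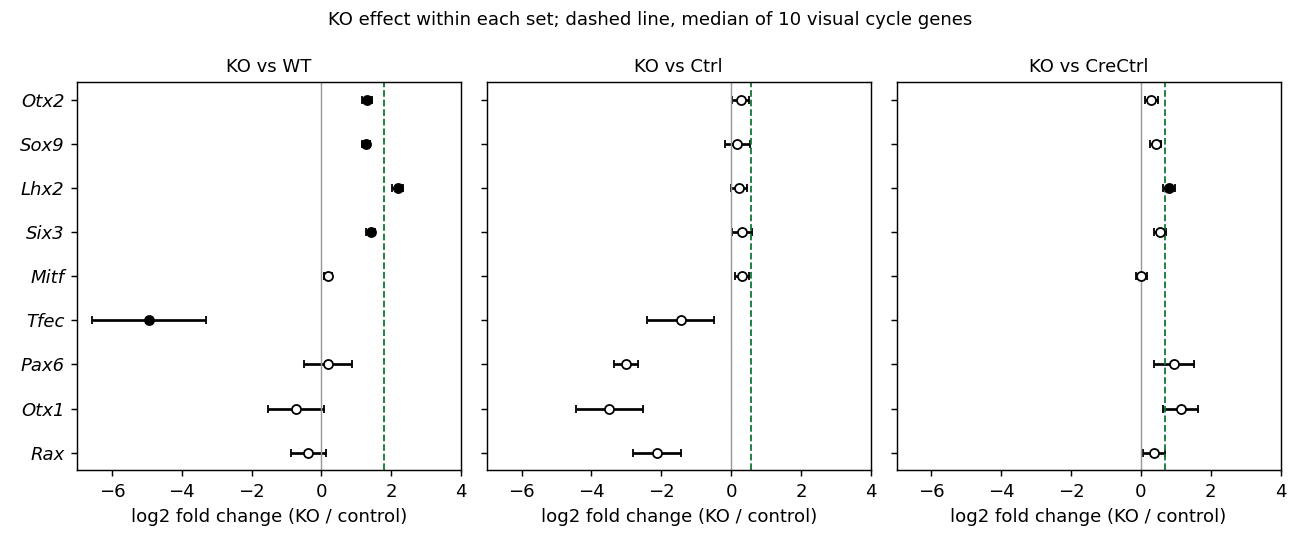
Log2 fold change of each factor, KO over control, in each of the 3 sets, from edgeR. Bars are standard errors, filled points have an adjusted p under 0.05, the dashed green line is the median of 10 visual cycle genes, and Tfec was not tested in the CreCtrl set; in the WT set Otx2, Sox9 and Six3 lie left of the visual cycle median of 1.81 and Lhx2 right of it, and Mitf lies near 0.

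The difference between sets was tested directly, in 1 fit of all 14 libraries as 6 groups. The KO effect was larger in the WT set than in the Ctrl set for 4 of 9 factors: Otx2 (difference of log2 fold changes 1.14, SE 0.22, adjusted p = 0.0166 from edgeR), Sox9 (1.22, SE 0.30, adjusted p = 0.0358), Lhx2 (2.08, SE 0.25, adjusted p = 0.00585) and Six3 (1.21, SE 0.26, adjusted p = 0.0207). Of all 15704 genes, 5.76% differed so (4.73% with a higher effect in the WT set). Against the CreCtrl set, 2 of 9 differed: Otx2 (1.12, SE 0.22, adjusted p = 0.0298) and Lhx2 (1.48, SE 0.24, adjusted p = 0.0193), beside 1.87% of all genes (1.37% higher). Between the Ctrl and CreCtrl sets none of the 9 and 0% of all genes differed by edgeR, with 1454 genes, Pax6, Lhx2, Rax and Otx1 among them, at an unadjusted p under 0.05. For Mitf the difference of the WT from the Ctrl set was -0.01 (SE 0.18, adjusted p = 0.989). For Pax6 the difference of the Ctrl from the CreCtrl set was -3.96 (SE 1.19, adjusted p = 0.432).

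With the 3 sets fitted together as 7 KO against 7 control mice and set as a covariate, 6 of 9 factors were called, Tfec among them, beside 38.7% of 16181 genes (20.1% higher, 18.6% lower). Those that rose were Lhx2 (log2 fold change 1.28, SE 0.28, adjusted p = 0.003 from edgeR), Six3 (0.90, SE 0.19, adjusted p = 0.0023), Otx2 (0.78, SE 0.19, adjusted p = 0.00558), Sox9 (0.77, SE 0.20, adjusted p = 0.00696) and Mitf (0.23, SE 0.08, adjusted p = 0.0432). The calls of Lhx2, Six3, Otx2 and Sox9 held on leaving out any 1 library. The call of Mitf did not: it was lost in 10 of 14 such fits and by DESeq2 (log2 fold change 0.17, adjusted p = 0.139), and its sign turned with library size alone (-0.03). Tfec had -2.92 (SE 0.94, adjusted p = 0.024), and passed the filter here too only through control libraries. With all genes of at least 1 count tested its adjusted p was 0.0264, and without CreCtrl replicate 2 it was 0.0577. Pax6 (-0.32, SE 0.67), Rax (-0.57, SE 0.44) and Otx1 (-0.84, SE 0.79) had adjusted p of 0.747, 0.338 and 0.438. The KO effect differed between sets for 4 of the called factors, so these means join unequal effects. When the mean log2 CPM of the fibroblast genes was added as a covariate, 0 genes were called, and the log2 fold changes of Otx2 (-0.41), Sox9 (-0.16), Lhx2 (-0.26) and Six3 (-0.04) turned negative. In that fit Clic4 itself had a log2 fold change of 0.22 (adjusted p = 1), so it did not separate the genotype from the fibroblast score.

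The visual cycle genes, among the known targets of Otx2, Sox9 and Lhx2, had positive log2 fold changes in every set. Rpe65, Lrat, Rgr, Rlbp1 and Stra6 are also among the RPE markers summed above, so these lists are not independent measures. In the WT set 10 of 10 were called higher (median log2 fold change 1.81, beside -0.08 over all genes tested), in the CreCtrl set 3 of 10 higher (median 0.69, beside -0.02), and in the Ctrl set 0 of 10 (median 0.58, beside 0.01). DESeq2 called 8 of 10 in the CreCtrl set and 0 in the Ctrl set. The count in the CreCtrl set was 9 without CreCtrl replicate 1 and 0 without KO replicate 2. With the sets together 10 of 10 were higher (median 1.20). Lrat, the retinyl ester synthase, had 2.71 in the WT set (SE 0.17, adjusted p = 3.16e-05 from edgeR), 0.68 in the Ctrl set (SE 0.33) and 1.26 in the CreCtrl set (SE 0.30, adjusted p = 0.0364) on the log2 scale. Rlbp1, the retinaldehyde carrier, had 1.37 (SE 0.17), 0.55 (SE 0.29) and 0.81 (SE 0.26), of which the value in the WT set passed. Rdh11, a retinol dehydrogenase, had 2.11 (SE 0.18), 0.53 (SE 0.30) and 0.90 (SE 0.22), and passed in the WT and CreCtrl sets. Rrh, an opsin of the RPE, had 1.65 (SE 0.17), 0.52 (SE 0.24) and 0.55 (SE 0.20), and passed in the WT set.

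The pigment genes, which are known targets of Mitf and Otx2, were called higher in 9 of 12 cases in the WT set (median log2 fold change 1.42). In the Ctrl set 0 of 12 were called (median 0.09), and in the CreCtrl set 3 were higher and 1, Pmel, lower (median 0.55). The CreCtrl set had 7 called (6 higher) by DESeq2 and without CreCtrl replicate 1, and 0 without KO replicate 2. The Ctrl set had 1 called, lower, by DESeq2 and without Ctrl replicate 1. With the sets together, 6 of 12 were higher and none lower (median 0.78). Oca2, a melanosomal channel, rose by 2.83 on the log2 scale in the WT set (SE 0.12, adjusted p = 1.43e-05 from edgeR) and by 1.04 in the CreCtrl set (SE 0.21, adjusted p = 0.0226). Gpr143, a melanosomal receptor, rose by 2.46 (SE 0.20) and 0.83 (SE 0.15), and Rab27a, which carries melanosomes, by 1.58 (SE 0.20) and 0.78 (SE 0.20), with adjusted p under the threshold in both sets. Slc24a5, a melanosomal exchanger, rose by 2.11 in the WT set (SE 0.15, adjusted p = 4.44e-05) and had 0.46 in the CreCtrl set (SE 0.19, adjusted p = 0.13). Mitf itself had 0.19 on that scale in the WT set.

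Of 18 other transcription factors and cofactors of the eye field and RPE, 16 were tested in the WT set, of which 1 was called higher (Yap1, log2 fold change 0.38, adjusted p = 0.0435 from edgeR) and 8 lower (median of the 16, -0.92). In the Ctrl set 0 of 18 were called (median -0.32), and in the CreCtrl set 2 of 16 were lower (median -0.25). Without CreCtrl replicate 1, 7 were called there (4 higher), and without CreCtrl replicate 2, 1 was. Against Ctrl, 1 was called, higher, without Ctrl replicate 1, and 3, all lower, by DESeq2. With the sets together 1 of 17 was higher and 8 were lower (median -0.68). The named genes of lowest p there were Nr2f1, an orphan nuclear receptor (-2.13, SE 0.41, adjusted p = 0.00161), Tead2, a partner of Yap1 (-2.08, SE 0.41, adjusted p = 0.00183), Tcf7l2, a Wnt effector (-0.68, SE 0.14, adjusted p = 0.00222), and Sox8, a relative of Sox9. Sox8 had 70, 65 and 114 counts in WT libraries and 0 in each KO library of that set, 40 and 14 in Ctrl against 12 and 7 in KO, and 36 and 49 in CreCtrl against 0 and 8 in KO. It is among the genes counted lower, although in the WT and CreCtrl sets it passed the filter on low counts only through control libraries. The summed CPM of the 10 fibroblast markers fell in the same libraries, and its part in these falls was not tested.

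**Figure D3:**
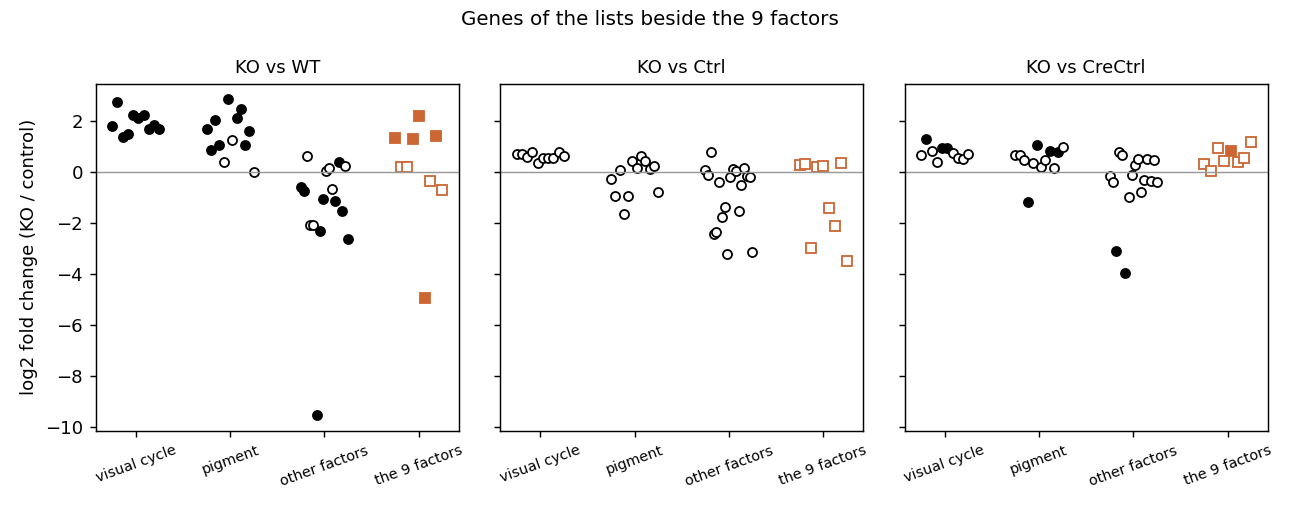
Log2 fold change, KO over control, of single genes in the 3 sets: 10 visual cycle genes, 12 pigment genes and up to 18 other eye-field and RPE factors (circles), beside the 9 factors (squares). Filled symbols have an adjusted p under 0.05 by edgeR, the axis is linear, and the lowest circle in the WT set is Sox8, fitted against 0 counts in KO; the visual cycle genes lie above 0 in each set.

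To set the factors beside the general rise of RPE transcripts, libraries were scaled to the geometric mean of 10 RPE marker genes (Rpe65, Lrat, Rgr, Rlbp1, Best1, Ttr, Kcnj13, Slc16a8, Enpp2 and Stra6), none of them among the 9 factors. With TMM, 9 of these 10 markers were called higher over the 3 sets and Best1 lower (log2 fold change -1.02, adjusted p = 0.0484 from edgeR). On this scale the median log2 fold change over all 16181 genes was -1.06 and 71.7% of genes were called, 71.4% lower and 0.235% higher, so a fall on it says only that a gene rose less than the RPE markers or fell against them. Otx2 (log2 fold change -0.28, SE 0.15, adjusted p = 0.1 from edgeR), Sox9 (-0.27, SE 0.16, adjusted p = 0.144), Six3 (-0.13, SE 0.14, adjusted p = 0.398) and Lhx2 (0.24, SE 0.18, adjusted p = 0.222) were not called, with values of -0.28 to 0.24. Mitf was called lower (-0.82, SE 0.21, adjusted p = 0.00348), as were Rax (-1.71, SE 0.49, adjusted p = 0.00734) and Otx1 (-2.08, SE 0.84, adjusted p = 0.0374). Tfec had -3.91 (SE 1.09, adjusted p = 0.00616), with the limit from the filter given above. Pax6 had -1.50 (SE 0.65, adjusted p = 0.0511) and was called in 4 of 14 fits that leave out 1 library. The call of Otx1 was lost in 6 of those fits, while those of Mitf and Rax held in all 14. Otx2 was called, lower, in 1 of them, without WT replicate 3 (beside 11091 of 15954 genes). The value of Mitf lies above that of the median gene. With libraries scaled to the visual cycle and pigment genes instead, Mitf, Pax6, Tfec, Rax and Otx1 were called, all lower, beside 10559 of 16181 genes. The same 5 were called relative to the 10 RPE markers with all genes of at least 1 count tested (11568 of 27272 genes) and with the replicate block (9821 of 16181 genes).

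On the same scale, in CPM scaled to the RPE markers, Mitf had 294, 198 and 173 in WT and 84.5, 76.8 and 84.5 in KO mice of that set. It had 174 and 173 in Ctrl against 153 and 146 in KO, and 142 and 202 in CreCtrl against 129 and 110.1 in KO. Each KO library lay below the control libraries of its set. Otx2 had 1199, 768 and 633 in WT and 673, 649 and 744 in KO of that set, which overlapped. It had 919 and 1032 in Ctrl against 783 and 856 in KO, and 909 and 1006 in CreCtrl against 884 and 762 in KO. Lhx2 had 132, 85.2 and 81.7 in WT against 152.5, 161 and 128 in KO, 163 and 215 in Ctrl against 141.5 and 164 in KO, and 123 and 125 in CreCtrl against 160.4 and 146 in KO. Relative to the RPE markers, the KO libraries of the Ctrl and CreCtrl sets lay below their controls for Otx2. Those of the CreCtrl set lay above theirs for Lhx2, which overlapped in the WT and Ctrl sets. Tfec, with the few counts given above, also lay below in each set, Rax in the WT and Ctrl sets, Sox9 in the WT set, and Pax6 and Otx1 in the Ctrl set. Otx2 and Lhx2 were not called on this scale with all 14 libraries, where 71.4% of all genes were called lower. Groups of 2 mice can separate by chance, and the share of all genes that did so was not counted.

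**Figure D4:**
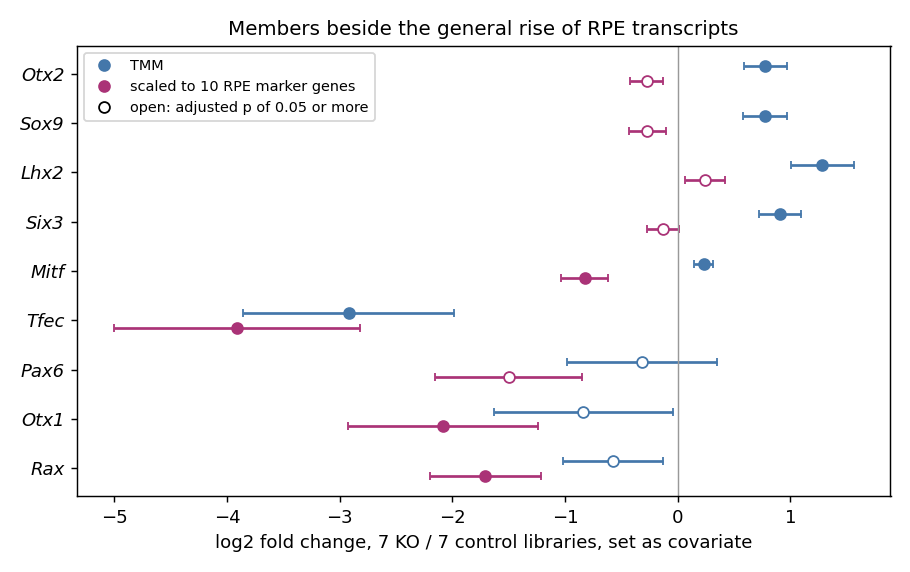
Log2 fold change of each factor over the 3 sets (7 KO, 7 control libraries, set as covariate) with libraries scaled by TMM (blue) and to 10 RPE marker genes (purple). Bars are standard errors from edgeR, and filled points have an adjusted p under 0.05; Otx2, Sox9, Lhx2 and Six3 are called with TMM and lie near 0 on the RPE scale, and Mitf changes from 0.23 to -0.82.

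Across the 14 libraries, with set means removed, Otx2, Sox9, Lhx2 and Six3 varied together. Pearson's r of their log2 CPM was 0.92 to 0.98 over the 6 pairs, and is given as a description: the points share genotype, depth and the RPE share of each library. Pax6, Otx1 and Rax varied together as well, with r of 0.85 for Pax6 and Otx1, 0.64 for Pax6 and Rax and 0.66 for Rax and Otx1, and were little related to the first group (r of Pax6 with Otx2 0.04, with Lhx2 0.15). Mitf had r of 0.77 with Otx2 and -0.34 with Pax6. Tfec had r of -0.85 with Lhx2, from counts of 0 to 39 per library.

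**Figure D5:**
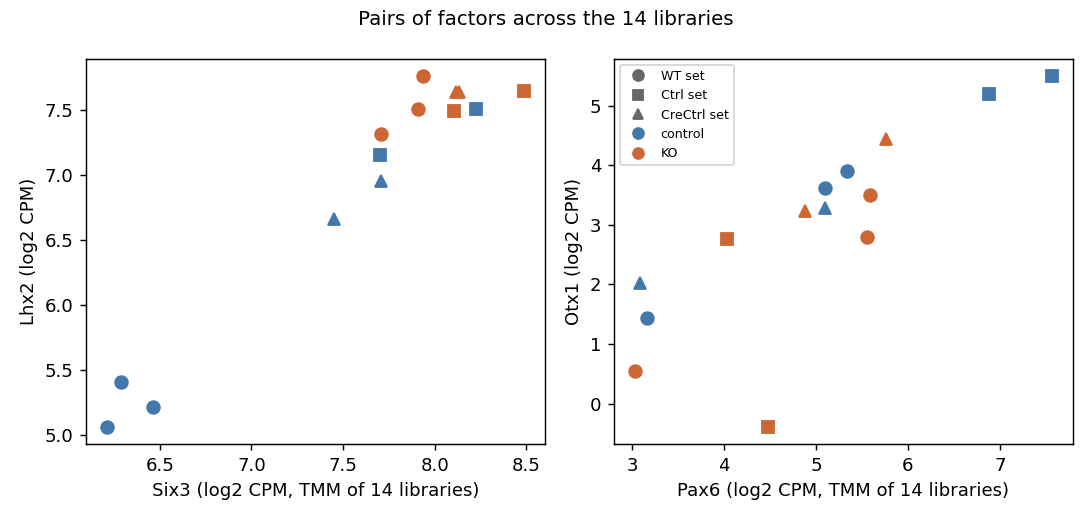
Log2 CPM (TMM over 14 libraries, prior count 2) of Lhx2 against Six3 and of Otx1 against Pax6, with 1 point per library (blue, control; orange, KO; circles, WT set; squares, Ctrl set; triangles, CreCtrl set). The WT libraries sit apart at the lower left for Lhx2 and Six3, whereas control and KO libraries are mixed along the range of Pax6 and Otx1, with both Ctrl libraries at the top.

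The genes whose pattern was most like that of each factor (highest Pearson's r over 14 libraries, set means removed, among 9987 genes of at least 10 CPM on average) differed between these groups. For Otx2 they were Tc2n (r = 0.99), Rorb (0.98) and Dzip1 (0.98). Those of Sox9 were Atp1b2, Mrpl42 and Abcc4 (0.99 each). Lhx2 was most like Spon1, Fam213a and Uqcrc2 (0.99 each), and Six3 most like Cat, Tex2 and Zfp385b (0.99 each). Mitf had Cdr2l, Tecpr2 and Man2a2 (0.92 each). For Pax6 they were Tnfrsf21 (0.94), Ifi202b (0.91) and Gpx3 (0.88). Otx1 was most like Col4a6 (0.96), Reln (0.95) and Zic1 (0.94), and Rax most like Sned1 (0.93), Podxl2 (0.90) and Slc1a3 (0.87). Slc1a3, the glutamate transporter of Muller glia, had 1.26 to 41.9 CPM over the 14 libraries (TMM over 14 libraries).

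The 10 rod genes, which mark neural retina, had summed CPM of 32.1 to 1485 in WT, 128 to 1901 in the KO mice of that set, 355 to 1947 in Ctrl, 1775 to 1867 in KO of that set, 1014 to 4815 in CreCtrl and 242 to 375 in KO of that set (TMM over 14 libraries). In the CreCtrl set 10 of 10 were called lower in KO (median log2 fold change -3.04), and with the sets together 0 of 10 were called. Pax6 and Otx1 had log2 fold changes of 0.94 and 1.14 in the CreCtrl set, without passing the test. Crx, the photoreceptor relative of Otx2, was 1 of the 2 other factors called lower in it (log2 fold change -3.12, adjusted p = 0.0235 from edgeR). The immediate-early genes respond within minutes to tissue handling. Of these, 11 of 11 were called lower in KO in the WT and CreCtrl sets and with the sets together (median -3.16). In the Ctrl set, where no gene was called, 0 of 11 had a positive log2 fold change and the median was -2.95. Over the 3 sets together, 10 of 10 endothelial genes were lower, 8 of 10 myeloid genes lower and 1 higher, 2 of 3 mast cell genes lower, 2 of 6 melanocyte and Schwann cell genes lower and 1 higher, 2 of 6 cone genes higher, 1 of 6 Muller glia genes lower and 1 higher, 1 of 2 amacrine, horizontal and ganglion cell genes lower and 1 higher, and 0 of 4 bipolar genes called. The genes called higher included Csf1r of the myeloid list and Sox10 of the melanocyte and Schwann cell list. They also included Glul of the Muller glia list and Slc6a9 of the amacrine, horizontal and ganglion cell list. These were abundant in every library (Csf1r 444 to 838 CPM, Sox10 177 to 753, Glul 1061 to 2576 and Slc6a9 507 to 1150, TMM over 14 libraries). The part of the genes of these lists in the values of the 9 factors was not tested.

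The bases before the start sites of some of these genes are shown because Mitf and the pigment genes it is known to drive moved by different amounts. RefSeq (GRCm38.p6) windows were matched for 6 of the 9 factors, 8 of 10 visual cycle genes and 7 of 12 pigment genes. In the 250 bases before the start, on both strands, TAATCC (the letters that Otx2 and Crx prefer) was found in 6.25% of all 32851 windows, TAATTA (preferred by LIM homeodomain factors) in 4.84%, AACAAT (Sox factors) in 9.42%, CACGTG (the E-box) in 6.02% and CATGTG (the M-box core that Mitf prefers) in 12.3%. No matches overlap in the windows printed. CATGTG was found for 5 of the 7 pigment genes matched (Tyr, Tyrp1, Dct, Oca2 and Slc24a5), against 2 of 8 visual cycle genes and 1 of the 6 factors matched. Counted by window, since a gene can have several, it was in 62.5%, 16.7% and 7.69% of their windows, beside 12.3% of all. The pigment genes were listed as known targets of Mitf, so their share is not independent of that choice. TAATCC was found for Rgr, Rpe65 and Dct, and for 2 of the 6 factors matched. A match is a description of the letters, not a bound site. Capitals mark the matched letters or their reverse complement below, 5′ to 3′ on the strand of the gene, and Tyr, Dct and Rgr were chosen for their matches after their values were seen. Coordinates are chr14:48667645-48667894 (minus strand) for Otx2, chr6:97991533-97991782 (plus strand) for an internal start of Mitf, chr7:87493513-87493762 (minus strand) for Tyr, chr14:118052247-118052496 (minus strand) for Dct, chr7:56239509-56239758 (plus strand) for Oca2 and chr14:37049015-37049264 (minus strand) for Rgr.
Otx2: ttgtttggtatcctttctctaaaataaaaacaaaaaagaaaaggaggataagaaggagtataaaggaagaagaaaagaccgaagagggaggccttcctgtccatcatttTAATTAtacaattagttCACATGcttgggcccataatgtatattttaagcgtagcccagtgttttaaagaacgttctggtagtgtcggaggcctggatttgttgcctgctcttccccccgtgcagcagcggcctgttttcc
Mitf: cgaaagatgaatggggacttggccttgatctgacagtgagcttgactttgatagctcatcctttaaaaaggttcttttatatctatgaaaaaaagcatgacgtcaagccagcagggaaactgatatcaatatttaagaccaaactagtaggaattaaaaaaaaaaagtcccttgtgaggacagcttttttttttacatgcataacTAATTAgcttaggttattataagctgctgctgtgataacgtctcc
Tyr: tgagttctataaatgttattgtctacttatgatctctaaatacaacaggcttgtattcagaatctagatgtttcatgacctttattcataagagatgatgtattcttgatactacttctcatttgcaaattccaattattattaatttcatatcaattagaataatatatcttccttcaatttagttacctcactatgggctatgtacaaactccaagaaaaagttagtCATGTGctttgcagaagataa
Dct: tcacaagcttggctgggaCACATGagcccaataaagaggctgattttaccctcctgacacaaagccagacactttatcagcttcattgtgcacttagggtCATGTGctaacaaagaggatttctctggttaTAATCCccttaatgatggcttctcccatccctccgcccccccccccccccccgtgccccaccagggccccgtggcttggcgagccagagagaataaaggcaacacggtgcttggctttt
Oca2: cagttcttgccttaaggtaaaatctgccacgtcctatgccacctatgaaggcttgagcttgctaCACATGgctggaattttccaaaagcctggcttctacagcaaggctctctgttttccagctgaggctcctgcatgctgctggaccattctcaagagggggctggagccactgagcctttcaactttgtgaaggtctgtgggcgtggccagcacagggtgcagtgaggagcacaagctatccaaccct
Rgr: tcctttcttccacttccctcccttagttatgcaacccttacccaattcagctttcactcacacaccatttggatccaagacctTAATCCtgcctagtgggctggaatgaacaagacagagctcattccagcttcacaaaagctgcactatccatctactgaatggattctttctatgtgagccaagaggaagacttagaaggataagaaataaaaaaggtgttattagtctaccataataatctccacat

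In these windows, the M-box core of Tyr began 21 bases and that of Oca2 186 bases before the start, and Dct held 2 of them and 1 TAATCC. Tyr, the tyrosinase of melanin synthesis, had 1.68 on the log2 scale in the WT set (SE 0.23, adjusted p = 0.000771 from edgeR), -0.30 in the Ctrl set (SE 0.22) and 0.65 in the CreCtrl set (SE 0.35). Dct, which acts after it, had 2.04 (SE 0.17, adjusted p = 7.48e-05), 0.07 (SE 0.31) and 0.44 (SE 0.19). Rgr, an opsin of the visual cycle with TAATCC 167 bases before its start, had 2.20 (SE 0.15, adjusted p = 3.53e-05), 0.52 (SE 0.35) and 0.71 (SE 0.25). The printed window of Otx2 held TAATTA 141 and CATGTG 124 bases before the start, and that of Mitf held TAATTA 45 bases before it. Both genes have other windows, not printed, and which of their starts these RPE cells used was not tested. Of these, 1 of Otx2 held 3 TAATTA and 1 TAATCC, and 1 of Mitf held 1 TAATCC.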

How the data were processed

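RPE cells of 14 mice were sequenced by the authors as stranded mRNA libraries. Their methods give STAR 2.5.2 and GRCm38, and the submitters' processing notes also name HTSeq 0.11.2, Cufflinks 2.1.1 and bcl2fastq 2.19. The strand setting and annotation release of the counting are not given in the sources used here. The deposited values are raw read counts per gene. Counts were tested with edgeR 4.0.16 (R 4.3.3; TMM, filterByExpr, quasi-likelihood test, Benjamini-Hochberg over all genes tested, called at an adjusted p under 0.05), after checks on simulated data. The simulated counts had the same spread for every gene and no shift in cell composition. They check the steps of the test, not its power or false calls in these libraries. DESeq2 1.42.0, other scalings, filters on low counts, a block for the replicate number and leaving out each library were alternatives. Each set was fitted alone, then all 14 libraries with set as covariate or as 6 groups. The KO mice were placed in sets by the style of their titles. Exon lengths came from GENCODE M21. The 9 factors and the gene lists were chosen with earlier results of these data known. Named genes were the factors, Clic4, the 4 genes of lowest p of each list, or those of highest level where fewer than 4 were called, and the 3 genes most like each factor. Pmel, Crx, Yap1, Col2a1, Tyr, Dct, Rgr and Tyrp1 were named after their values were seen.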

Additional observations from a re-analysis of the deposited data

Results flagged for a closer look

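Among the 7 KO libraries, replicate 2 of the Ctrl set stood apart for Sox9 (400.4 CPM, TMM over 14 libraries) and for Tfec (0.593 CPM) by Dixon's test at its 95% critical value of 0.568. This test flags about 1 in 20 groups by chance, and 9 were examined.

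The KO effect differed between sets in edgeR's test of the difference itself. From the Ctrl to the WT set it was larger by 1.14 (log2) for Otx2, 1.22 for Sox9, 2.08 for Lhx2 and 1.21 for Six3. From the CreCtrl to the WT set it was larger by 1.12 for Otx2 and 1.48 for Lhx2. Control genotype and set cannot be told apart in these differences.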

How the results depend on the processing

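In the WT set 5 factors, Tfec among them, were called, and 4 to 5 on leaving out a library in turn. The calls of Otx2, Sox9, Lhx2 and Six3 held there under every alternative run. Scaling by library size alone moved 16 of 54 group levels of the factors by over 1 SD. In the Ctrl set 0 were called, but 3 by DESeq2, 3 with all genes of at least 1 count, and 0 to 1 without a library in turn. In the CreCtrl set 1 was called, 3 by DESeq2, 4 with at least 1 count, and 0 to 4 without a library in turn. Over all genes, DESeq2 called 1168 and 3916 in these sets, the filter of at least 1 count 1658 and 4793, and the fit of 6 groups 656 and 746, beside 0 and 2529. Over the 3 sets 6 factors were called, Tfec and Mitf among them, 5 to 6 without a library in turn, and 0 with the fibroblast score as a covariate. The calls of Tfec here and in the WT set are not read as results, since it passed the filter only through control libraries. The call of Mitf over the 3 sets held in 4 of 14 fits without a library. With at least 1 count, the KO effect differed between the WT and Ctrl sets for 7 factors, the WT and CreCtrl sets for 5 and the Ctrl and CreCtrl sets for 3, 15 differences in all beside 6, with 2262, 1102 and 883 of 27272 genes.

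The signs that turned were all of values not called under that alternative. With library size alone, Mitf had -0.052 (WT set), -0.22 (CreCtrl set) and -0.029 (3 sets), Pax6 -0.060 (WT set), and the difference of Otx2 between the Ctrl and CreCtrl sets 0.088 (0.034 with RLE scaling). Mitf had -0.041 in the CreCtrl set with at least 10 counts in every library, and 0.044 for the WT minus Ctrl difference with at least 1 count. Without a library in turn, the log2 fold change of Mitf among CreCtrl and KO mice ran from -0.087 to 0.07, of Pax6 in the WT set from -0.23 to 0.74 (-0.08 without KO replicate 1), of Rax there from -0.70 to 0.40, of Sox9 in the Ctrl set from -0.19 to 0.58 (-0.13 without Ctrl replicate 1), and of Pax6 over the 3 sets from -0.65 to 0.10 (0.07 without KO replicate 2 of the Ctrl set). With the fibroblast covariate, over the 3 sets, Clic4 had 0.22, Otx2 -0.41, Sox9 -0.16, Lhx2 -0.26, Rax 0.17 and Six3 -0.038. The causes were not tested.

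The deviations of same-numbered libraries correlated weakly or not at all (WT set r = -0.0042, 0.074 and 0.21, Ctrl set r = -0.039, CreCtrl set r = 0.194). In the WT set the libraries numbered 3 had the highest r, whereas WT replicate 1 correlated best with KO replicate 2 (0.0792). In the sets with 2 mice per genotype, all values of r have the same size and differ only in sign. Whether the numbers pair the mice can therefore not be told. With the replicate block 4 factors were called against WT (4857 of 15428 genes), 1, Pax6, against Ctrl (adjusted p = 0.032 from edgeR; 113 genes), 3, Pax6, Lhx2 and Otx1, against CreCtrl (3824 genes), 4 over the 3 sets (5318 of 16181 genes) and 5 relative to the RPE markers (9821 genes).

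With 2 mice per genotype in the Ctrl and CreCtrl sets, and 0 to 39 counts per library for Tfec, small differences were not detectable. Leaving out a library there left 1 mouse in a group, which is assumed to vary like the others.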
